A study of Mus musculus with 12 samples.

Results

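Expression of the inflammatory arm of NF-kB signalling was followed in liver: the cytokines Tnf, Il1b and Il6, the chemokines Ccl2, Ccl3, Cxcl1 and Cxcl2, the receptor Tlr4, and the feedback inhibitors Nfkbia and Tnfaip3. These 10 genes were chosen by symbol, each through the probe set that names it alone, out of 22180 genes with such a probe set on the array. Each of the 10 had 1 such probe set. The tests took genes brighter than the 40th percentile of their array's genes on 3 or more of the 12 arrays. This held for 14031 genes and for 9 of the 10, with Il6 below it on every array.

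Total liver RNA of male C57BL/6 mice, 8 to 10 weeks old when feeding began according to the labels, was hybridised to Affymetrix Mouse Gene 2.0 ST arrays, with probes along whole transcripts. The 4 groups were Pparβ/δ-null mice on ethanol, Pparβ/δ-null mice on control diet, wild-type mice on ethanol and wild-type mice on control diet, with 3 arrays each. All mice took the liquid control diet for an acclimation week, and then either a liquid diet with 4% (v/v) ethanol or the control diet for 16 weeks. Ppard encodes the nuclear receptor PPARβ/δ. The sources used here do not state how the null allele was made, nor whether the arrays of a group came from separate mice of the 10 fed per group. The p-values therefore measure only how these samples scatter, which may be technical.

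NF-kB is a dimeric transcription factor that the inhibitor IkB-alpha, the product of Nfkbia, holds in the cytoplasm. Ligands such as bacterial lipopolysaccharide, sensed by TLR4, activate the IKK kinases, IkB-alpha is degraded, and NF-kB switches on cytokine and chemokine genes together with Nfkbia and Tnfaip3, whose products shut the signal down again. In liver, resident macrophages (Kupffer cells) meet lipopolysaccharide arriving from the gut, and this route has long been studied in alcoholic liver injury.

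Values are log2 of the deposited intensities. Array medians over all probe sets lay between 5.55 and 5.62. The expression filter lay between 5.61 and 5.71, and 1394 olfactory and vomeronasal receptor genes, which liver is not known to use, had a 95th percentile between 5.53 and 5.70. Ppard itself read between 7.69 and 8.06 on null arrays and between 7.64 and 8.01 on wild-type arrays (log2 change 0.08 ± 0.08 SE, adjusted p = 0.621). The position of its probes relative to the deletion is not stated, and Ppard signal therefore does not check the genotype labels. The defining markers Alb of hepatocytes, between 13.87 and 14.05, and Clec4f of Kupffer cells, between 8.55 and 9.68, were above the filter on all 12 arrays.

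Promoters of the members that moved, or that carry the clearest kB sites, are shown for reference. Windows of 250 bases before to 50 bases after the start site, from RefSeq's annotation of GRCm38.p6, matched 8 of the 10 genes, and Tlr4 and Ccl2 are named only. The kB consensus, 10 bases long and searched on both strands, was found in 5 of the 8 genes (Nfkbia, Tnfaip3, Cxcl1, Cxcl2 and Il6) and in 2275 of all 32851 windows (6.93%). The form found in Cxcl1, GGGAATTTCC, on either strand, stood in 3 of the 8 genes (Cxcl1, Cxcl2 and Nfkbia) and in 29 windows (0.0883%). It was taken from Cxcl1, so the match there was fixed in advance. The 8 genes had 9 windows, and these counts are no test of enrichment. The 250 bases before the start are printed 5′ to 3′ on the gene's strand, with kB matches in capitals. Nfkbia lies at chr12:55492648-55492897 (minus strand), Cxcl1 at chr5:90890995-90891244 (plus), Cxcl2 at chr5:90903649-90903898 (plus) and Ccl3 at chr11:83649379-83649628 (minus), the last with no match.
Nfkbia: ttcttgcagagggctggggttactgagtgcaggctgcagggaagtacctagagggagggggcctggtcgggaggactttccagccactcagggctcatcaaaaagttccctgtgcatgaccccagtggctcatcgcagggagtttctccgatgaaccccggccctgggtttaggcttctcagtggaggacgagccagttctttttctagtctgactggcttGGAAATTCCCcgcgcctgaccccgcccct
Cxcl1: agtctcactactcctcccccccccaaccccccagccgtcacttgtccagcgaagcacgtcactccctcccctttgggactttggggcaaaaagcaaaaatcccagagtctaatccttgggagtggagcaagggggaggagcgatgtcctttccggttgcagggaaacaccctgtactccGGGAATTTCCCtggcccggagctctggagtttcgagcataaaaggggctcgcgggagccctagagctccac
Cxcl2: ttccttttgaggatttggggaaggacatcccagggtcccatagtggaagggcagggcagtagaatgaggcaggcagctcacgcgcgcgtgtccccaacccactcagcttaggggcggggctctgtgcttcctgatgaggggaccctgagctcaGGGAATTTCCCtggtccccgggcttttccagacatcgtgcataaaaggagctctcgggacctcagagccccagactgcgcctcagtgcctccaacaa
Ccl3: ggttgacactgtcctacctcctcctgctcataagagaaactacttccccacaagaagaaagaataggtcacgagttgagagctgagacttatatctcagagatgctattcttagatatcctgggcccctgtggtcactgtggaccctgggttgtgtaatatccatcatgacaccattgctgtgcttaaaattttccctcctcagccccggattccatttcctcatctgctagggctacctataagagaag
In Cxcl1 the match ran from -71 to -62 and in Cxcl2 from -97 to -88, each overlapped by a match on the other strand shifted by 1 base. In Nfkbia the match lay on the opposite strand from -29 to -20. A match describes letters in this window and is not a measured site of NF-kB binding.

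Levels differed widely between the members. Nfkbia was far above the filter, at a median percentile of 90.5 among the genes of an array. Cxcl2 (percentile 62.7), Tnfaip3 (56.8), Cxcl1 (55.8), Ccl2 (55.0) and Ccl3 (46.1) were above the filter on all 12 arrays. Il1b (percentile 45.2), Tnf (42.9) and Tlr4 (36.5) straddled it, and Il6 (10.5) lay among the receptor genes, with 53.7% to 69.7% of them below it. Probe sets differ in how brightly they hybridise, so this order is one of probe set signals and not of transcript number.

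**Figure D1:**
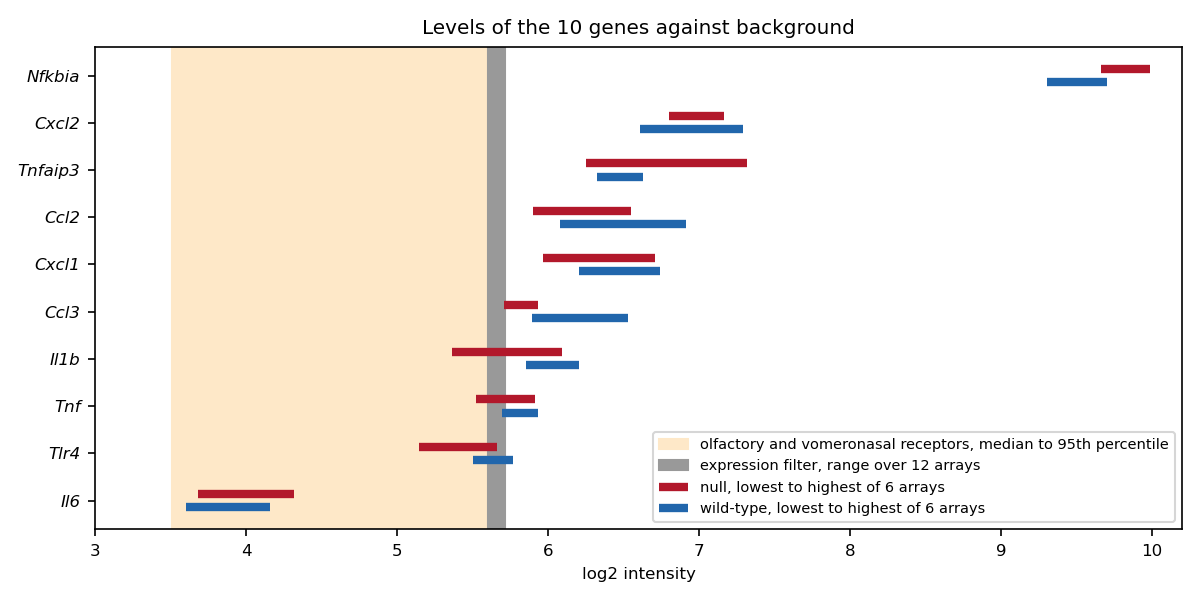
Range of log2 intensity of each of the 10 genes over the 6 null arrays (red) and the 6 wild-type arrays (blue). The pale band spans the median to the 95th percentile of olfactory and vomeronasal receptor genes and the grey band is the expression filter over the 12 arrays. Nfkbia lies between 9.31 and 9.99, Il6 lies inside the pale band, and Tlr4, Tnf and Il1b cross the grey band.

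Null livers differed from wild-type livers, averaged over the diets, in the inhibitor Nfkbia, which rose 1.29-fold, and in the chemokine Ccl3, which fell 1.31-fold. These 2 of the 9 tested members passed an adjusted p under 0.05 (limma, Benjamini-Hochberg over all tested genes), against 982 of all 14031 genes (7.0%). The members' median change was -0.17 log2, against -0.0005 for all tested genes, with 3 members positive and 6 negative. At unadjusted p under 0.05 there were 5 of the 9 members, against 3005 of all 14031 genes (21.4%). In exact two-sided permutation tests within diets, run on all 10 members and not adjusted, Il1b had p = 0.04, Tlr4 p = 0.045 and Tnf p = 0.06, and the 5 members Ccl2, Cxcl1, Tnfaip3, Il6 and Cxcl2 had p of 0.215 to 0.73.

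Tlr4 encodes the receptor that senses lipopolysaccharide. It read 5.52, 5.14 and 5.15 on null ethanol arrays, 5.66, 5.19 and 5.48 on null control arrays, 5.56, 5.66 and 5.72 on wild-type ethanol arrays, and 5.77, 5.53 and 5.50 on wild-type control arrays. Its values lay above the filter on 1 of 6 null arrays and on 3 of 6 wild-type arrays. On ethanol all null arrays read below all wild-type arrays, whereas on the control diet the groups overlapped. The log2 change was -0.26 ± 0.10 (SE) over the diets and did not pass (adjusted p = 0.128).

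Nfkbia read 9.66, 9.84 and 9.89 on null ethanol arrays and 9.94, 9.79 and 9.99 on null control arrays. It read 9.45, 9.42 and 9.31 on wild-type ethanol arrays and 9.70, 9.34 and 9.70 on wild-type control arrays. On each diet the null arrays lay above all wild-type arrays of that diet. The group means were 9.80 ± 0.12 in null ethanol, 9.91 ± 0.10 in null control, 9.39 ± 0.08 in wild-type ethanol and 9.58 ± 0.21 in wild-type control livers (SD, n = 3 each). The log2 change over the diets was 0.37 ± 0.08 (SE; 95% interval 0.19 to 0.54, adjusted p = 0.0149), and an exact two-sided permutation test within diets gave p = 0.005, the smallest that its 400 arrangements allow. Leaving out each array in turn kept the call, with changes of 0.31 to 0.40.

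Tnfaip3, which encodes the ubiquitin-editing enzyme A20 that restrains NF-kB signalling, did not pass. It read 6.54, 6.71 and 6.25 on null ethanol arrays, 7.32, 6.47 and 6.63 on null control arrays, 6.33, 6.52 and 6.39 on wild-type ethanol arrays, and 6.50, 6.56 and 6.63 on wild-type control arrays. A single null control array, at 7.32, stood above all others, and the groups overlapped. The change was 0.17 ± 0.13 (SE, adjusted p = 0.499).

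Among the chemokines, Ccl3, which encodes macrophage inflammatory protein 1-alpha, read 5.71, 5.84 and 5.78 on null ethanol arrays and 5.94, 5.81 and 5.74 on null control arrays. It read 5.96, 5.90 and 6.29 on wild-type ethanol arrays and 6.53, 6.00 and 6.46 on wild-type control arrays. The null arrays lay below all wild-type arrays of the same diet, although the null values were close to the filter, and the wild-type values scattered more (SD 0.08 over the 6 null arrays and 0.27 over the 6 wild-type arrays). The group means were 5.78 ± 0.06 in null ethanol, 5.83 ± 0.10 in null control, 6.05 ± 0.21 in wild-type ethanol and 6.33 ± 0.29 in wild-type control livers (SD, n = 3 each). The log2 change over the diets was -0.39 ± 0.10 (SE; 95% interval -0.60 to -0.17, adjusted p = 0.035; exact permutation p = 0.005). The call was lost on leaving out any 1 of 8 arrays (null ethanol 1, 2 or 3, null control 2 or 3, wild-type ethanol 3, wild-type control 1 or 3), with changes of -0.40 to -0.33 and adjusted p of 0.0553 to 0.0869, and also with no filter on dim genes (adjusted p = 0.0672).

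Ccl2, the monocyte attractant also called MCP-1, read 6.42, 6.43 and 6.12 on null ethanol arrays, 5.90, 6.55 and 6.41 on null control arrays, 6.29, 6.77 and 6.08 on wild-type ethanol arrays, and 6.41, 6.91 and 6.69 on wild-type control arrays. The 4 groups overlapped, and the change was -0.22 ± 0.14 (SE, adjusted p = 0.399). Cxcl1, a neutrophil attractant, read 5.96, 6.45 and 6.47 on null ethanol arrays, 6.71, 6.16 and 6.18 on null control arrays, 6.21, 6.21 and 6.60 on wild-type ethanol arrays, and 6.56, 6.74 and 6.50 on wild-type control arrays, which also overlapped (change -0.15 ± 0.12, adjusted p = 0.54). Its neighbour on chromosome 5, Cxcl2, attracts neutrophils too. It read 6.85, 7.11 and 6.94 on null ethanol arrays, 7.0, 6.80 and 7.17 on null control arrays, 6.80, 6.99 and 6.61 on wild-type ethanol arrays, and 6.89, 7.29 and 7.04 on wild-type control arrays. Its change was 0.04 ± 0.10 (SE, adjusted p = 0.863), with an interval of -0.17 to 0.24.

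Of the cytokines, Tnf, the founding member of the tumour necrosis factor family, read 5.75, 5.66 and 5.91 on null ethanol arrays, 5.52, 5.56 and 5.72 on null control arrays, 5.70, 5.86 and 5.85 on wild-type ethanol arrays, and 5.87, 5.91 and 5.93 on wild-type control arrays. It lay above the filter on 3 of 6 null arrays and 6 of 6 wild-type arrays. On the control diet the null arrays lay below all wild-type arrays, and on ethanol the groups overlapped; the change over the diets was -0.17 ± 0.07 (SE, adjusted p = 0.163).

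Il1b encodes interleukin 1-beta, made as an inactive precursor that the inflammasome cleaves. It read 5.42, 5.60 and 6.10 on null ethanol arrays, 5.36, 5.82 and 5.79 on null control arrays, 6.06, 5.95 and 6.20 on wild-type ethanol arrays, and 5.95, 5.93 and 5.86 on wild-type control arrays, above the filter on 3 of 6 null and 6 of 6 wild-type arrays. The change was -0.31 ± 0.11 (SE, adjusted p = 0.13). Without the null ethanol array at 6.10 it was -0.41 and passed (adjusted p = 0.0204), but leaving out any other array gave no call. It shrank to -0.24 without the null ethanol array at 5.42 (adjusted p = 0.262) and without the null control array at 5.36 (adjusted p = 0.232). Il6, the inducer of the hepatic acute phase response, read 3.68, 4.01 and 4.32 on null ethanol arrays, 4.09, 3.88 and 3.96 on null control arrays, 4.16, 4.07 and 3.6 on wild-type ethanol arrays, and 3.63, 4.08 and 4.04 on wild-type control arrays. These values had the level of receptor genes in every group, so no difference in Il6 could be measured here.

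**Figure D2:**
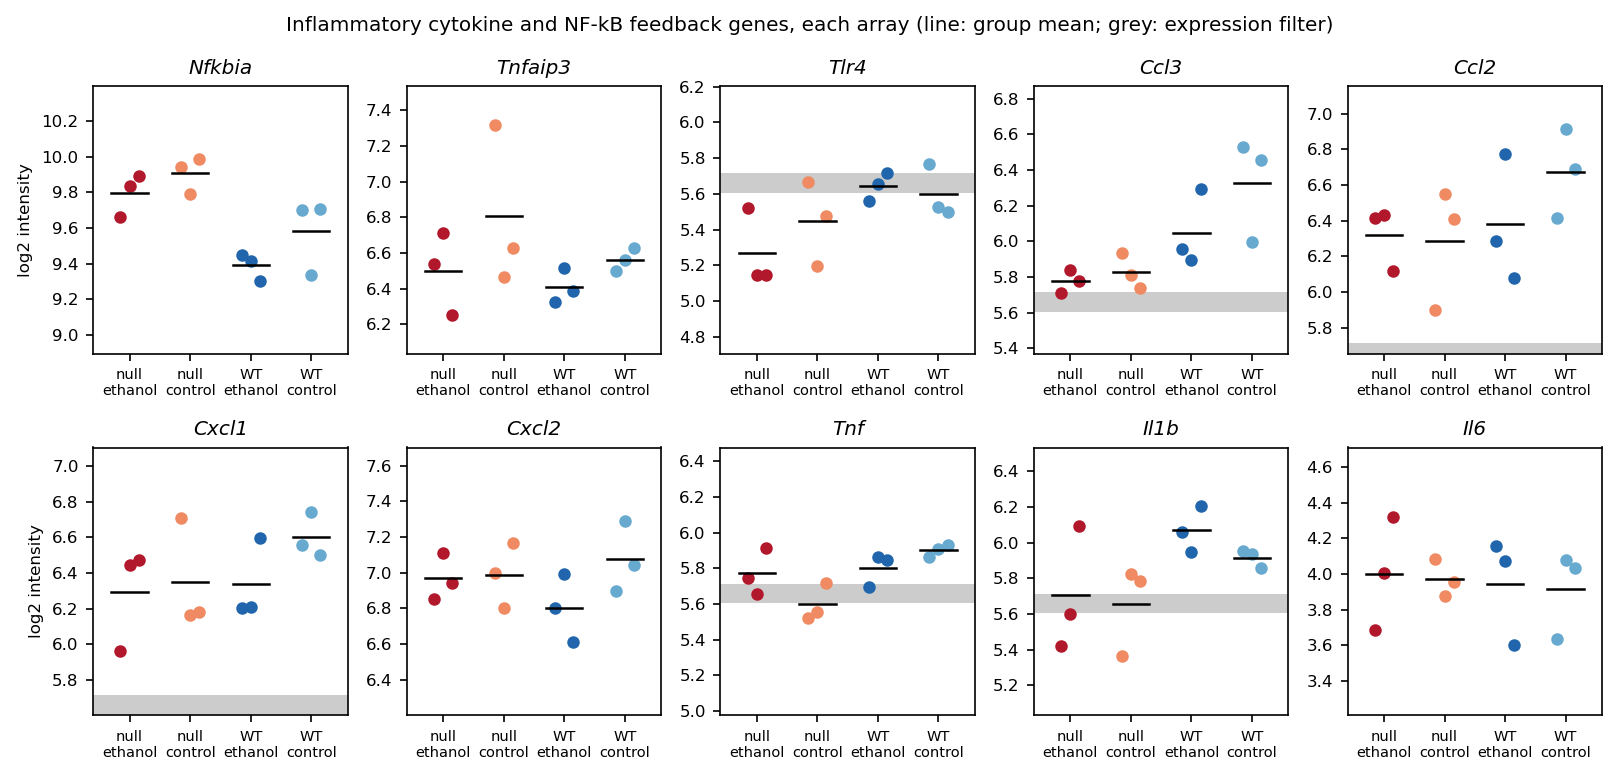
Log2 intensity of each of the 10 genes on each array (points), by group, with the group mean as a line and the expression filter as a grey band where it falls in the panel. Each panel has its own vertical range. Nfkbia points of null groups (9.66 to 9.99) sit high, and Ccl3 points of null groups (5.71 to 5.94) sit low.

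Within each diet alone, no member passed. At unadjusted p under 0.05 there were 3 of the 9 on each diet, against 2267 of all 14031 genes on ethanol (16.2%) and 3097 on the control diet (22.1%). On the control diet 0 of 9 members passed, against 715 of all genes (5.1%), the nearest being Ccl3 at -0.50 ± 0.14 (SE, adjusted p = 0.0583), Tnf at -0.30 ± 0.09 (adjusted p = 0.0787) and Nfkbia at 0.33 ± 0.11 (adjusted p = 0.11). On ethanol 0 of 9 passed, against 251 genes (1.79%), the nearest being Nfkbia at 0.41 ± 0.11 (SE, adjusted p = 0.0972) and Tlr4 at -0.37 ± 0.14 (adjusted p = 0.195). Leaving out wild-type control array 2 gave 1 call on each diet, Ccl3 on the control diet (-0.66, adjusted p = 0.00794) and Nfkbia on ethanol (adjusted p = 0.0425). That array is not in the ethanol comparison, so the Nfkbia change stayed at 0.41 and only its shared SE fell, from 0.11 to 0.09.

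No tested member passed for ethanol in either genotype. In null livers, ethanol against control gave 0 of 9 calls, against 1 of all 14031 genes (0.00713%), with member changes of -0.30 (Tnfaip3) to 0.17 (Tnf). In wild-type livers it gave 0 of 9, against 13 genes (0.0927%), with changes of -0.29 (Ccl2) to 0.16 (Il1b). Averaged over the genotypes it gave 0 of 9, against 2 genes (0.0143%), with changes of -0.23 (Tnfaip3) to 0.10 (Il1b). The counts over all genes depended on single arrays. Without wild-type control array 2 they rose to 810 for wild-type livers, 293 over both and 84 for the interaction, and stayed at 1 for null livers. Without wild-type ethanol array 2 the count for wild-type livers was 0. The members called for ethanol and for the interaction stayed at 0. No member reached an unadjusted p under 0.05 in these 3 comparisons or in the interaction, against 1709, 2035, 1702 and 2110 genes in null livers, in wild-type livers, over both and in the interaction, and exact permutation p-values within genotypes ran from 0.095 (Nfkbia) to 0.815 (Il6) over the 10 genes.

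The 95% intervals give the precision of the intensity changes. Il1b, Tnf and Tlr4, and Ccl3 in null livers, lay near the filter, where background signal can compress such changes. For these genes, among them the called Ccl3, the intervals do not bound the change in transcript. For ethanol against control averaged over the genotypes, the intervals of the tested members lay within -0.50 and 0.35 log2, or 1.42-fold lower to 1.27-fold higher in intensity. For null livers alone they lay within -0.70 and 0.47, and for wild-type livers alone within -0.72 and 0.51. The genotypes' ethanol effects differed in 0 of 9 members by the interaction term, against 2 of all genes (0.0143%), with differences of -0.22 (Tlr4) to 0.33 (Ccl2) and intervals within -0.71 and 0.94. The nearest was Tnf, at 0.27 ± 0.13 (SE, adjusted p = 0.356), where the ethanol change was 0.17 in null and -0.10 in wild-type livers.

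**Figure D3:**
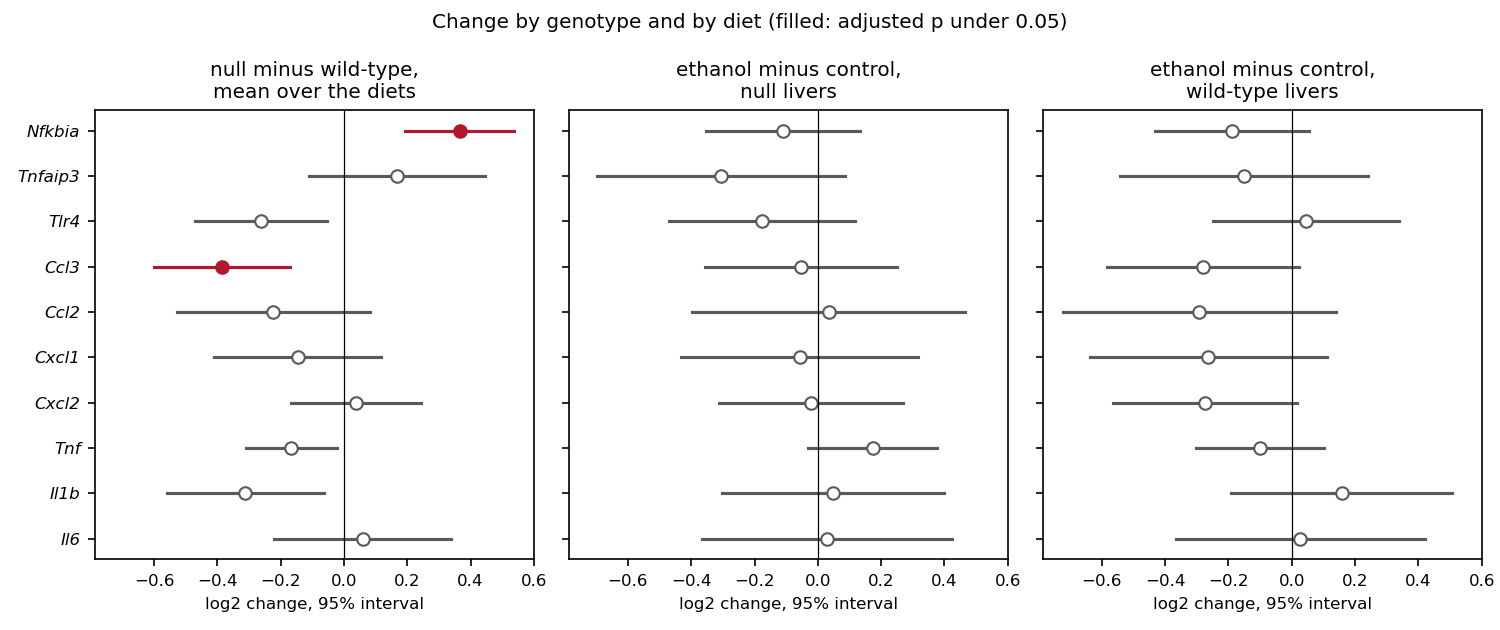
Log2 change of each gene with its 95% interval (limma), for null minus wild-type averaged over the diets, for ethanol minus control in null livers and for ethanol minus control in wild-type livers. Filled points passed an adjusted p under 0.05. Nfkbia at 0.37 and Ccl3 at -0.39 are filled in the first panel, and no point is filled in the ethanol panels. Il6, below the filter, is shown from the fit with no filter.

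The other genes of the pathway were described from 10 lists with 118 genes, 94 of which were tested. Null against wild-type, averaged over the diets, 3 rose and 5 fell, with a median change of -0.07; this is 8 of 94, near the 982 of 14031 over all genes. Besides Nfkbia and Tnfaip3, the inhibitor list held 13 tested genes, of which 1 fell, the IkB-family member Bcl3 (-0.29 ± 0.08, adjusted p = 0.0358), and none rose. Among IKK and upstream kinases 1 of 8 fell, the TAK1-binding adaptor Tab2 (-0.40 ± 0.10, adjusted p = 0.0358). None of 4 NF-kB subunits passed, with Rel at -0.36 (adjusted p = 0.14) and Rela at -0.09 (adjusted p = 0.453).

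Of 15 Toll-like receptors and adaptors, 13 had negative changes and 1 rose, the flagellin receptor Tlr5, which read between 8.68 and 9.12 on null arrays and between 8.29 and 8.60 on wild-type arrays (0.50 ± 0.07 SE, adjusted p = 0.00157). Tlr4's co-receptor Ly96 had a change of -0.26 (adjusted p = 0.183), the lipopolysaccharide-binding protein Lbp -0.26 (adjusted p = 0.165) and the adaptor Myd88 -0.22 (adjusted p = 0.135). None of 9 cytokine and chemokine receptors and antagonists passed. The interleukin-1 receptor Il1r1 had the largest changes there, 0.48 for null against wild-type (adjusted p = 0.254) and 0.62 for ethanol against control (adjusted p = 0.331). Its ethanol change was 1.08 in null (adjusted p = 0.293) and 0.17 in wild-type livers (adjusted p = 0.856). The interleukin-6 receptor Il6ra had an ethanol change of 0.61 (adjusted p = 0.255), with 0.68 in null and 0.55 in wild-type livers.

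Of 14 other cytokines and chemokines, 2 fell in null livers. Cxcl16, a membrane-bound chemokine that also acts as a scavenger receptor, read between 7.51 and 7.92 on null arrays and between 8.01 and 8.35 on wild-type arrays (-0.44 ± 0.08 SE, adjusted p = 0.00663). Tgfb1, the fibrogenic cytokine, read between 7.08 and 7.53 on null arrays and between 7.45 and 7.97 on wild-type arrays (-0.41 ± 0.09 SE, adjusted p = 0.014). By diet, the Tgfb1 change was -0.63 on ethanol (adjusted p = 0.0212). On the control diet it was only -0.18 (adjusted p = 0.411), and the groups overlapped. The interferon-induced Cxcl9 had a larger but more scattered change of -0.81 (adjusted p = 0.15). None of 11 other NF-kB target genes passed, with Icam1 at -0.32 (adjusted p = 0.0586) and Gadd45b at 0.83 (adjusted p = 0.144). None of 3 inflammasome genes passed (median change -0.05). Casp1, at a mean of 5.19 in null and 5.77 in wild-type livers, changed by -0.58 (adjusted p = 0.0567). It read between 4.77 and 5.79 on null arrays and between 5.47 and 6.27 on wild-type arrays. The filter lay between 5.61 and 5.71, so the null mean was at the level of background.

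Of 9 acute phase genes that respond to IL-6, all had negative changes over the diets (median -0.11), with Lcn2 at only -0.0034. On ethanol alone 2 of the 9 were positive. Only 1 fell, Saa2 (-1.72 ± 0.42 SE, adjusted p = 0.0267). Saa2 read 6.74, 8.53 and 6.84 on null ethanol arrays and 7.66, 6.62 and 7.04 on null control arrays. It read 7.25, 7.78 and 8.73 on wild-type ethanol arrays and 8.68, 10.19 and 11.11 on wild-type control arrays, 2 of which stood above all others. On the control diet the null arrays lay below all wild-type arrays, and on ethanol the groups overlapped. Of 8 MAPK and AP-1 stress genes, 2 rose: the phosphatase Dusp1 (1.21 ± 0.16 SE, adjusted p = 0.000681) and the transcription factor Egr1 (0.95 ± 0.23 SE, adjusted p = 0.0269). Dusp1 read 9.49, 9.43 and 10.35 on null ethanol arrays, 11.00, 10.64 and 11.41 on null control arrays, 9.44, 9.10 and 9.13 on wild-type ethanol arrays and 9.0, 9.15 and 9.22 on wild-type control arrays, highest in all null control arrays. Tlr5, Cxcl16, Tgfb1 and Dusp1 kept their calls on leaving out each array in turn, whereas Bcl3 lost its call in 10 of 12, Tab2 and Egr1 in 9 of 12 each and Saa2 in 6 of 12. Bcl3 also lost its call with a replicate block (adjusted p = 0.0574) and with no filter (0.0726), Tab2 with no filter (0.0683), and Saa2 (0.0806) and Egr1 (0.057) with an intensity trend and robust variances. With ethanol, averaged over the genotypes, none of the 94 passed (smallest adjusted p = 0.237). At unadjusted p under 0.05 there were 13 of the 94 for ethanol (13.8%, against 12.1% of all genes) and 30 of the 94 for genotype (31.9%, against 21.4% of all genes).

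On the control diet alone 4 of the 94 pathway genes rose and 2 fell in null livers (6.38%, against 5.1% of all genes), and on ethanol alone 1 rose and 1 fell (2.13%, against 1.79% of all genes), so both shares were near those of all genes. Tlr5 rose on both diets, by 0.49 ± 0.10 on ethanol (adjusted p = 0.03) and by 0.50 ± 0.10 on the control diet (adjusted p = 0.0184). On the control diet Dusp1 rose by 1.89 ± 0.23 (adjusted p = 0.000541), the mRNA-destabilising Zfp36, which shortens the life of Tnf mRNA, by 0.97 ± 0.25 (adjusted p = 0.0425) and the cytokine Mif by 0.47 ± 0.11 (adjusted p = 0.0286). On the same diet Saa2 changed by -2.89 ± 0.59 (adjusted p = 0.0167) and Tab2 by -0.60 ± 0.14 (adjusted p = 0.0325). On ethanol the gene that fell was Tgfb1, at -0.63 ± 0.12 (adjusted p = 0.0212). For Dusp1 the ethanol change in null livers was -1.26 ± 0.23 (adjusted p = 0.178) and the difference of the ethanol effects -1.36 ± 0.32 (adjusted p = 0.176), neither of which passed.

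**Figure D4:**
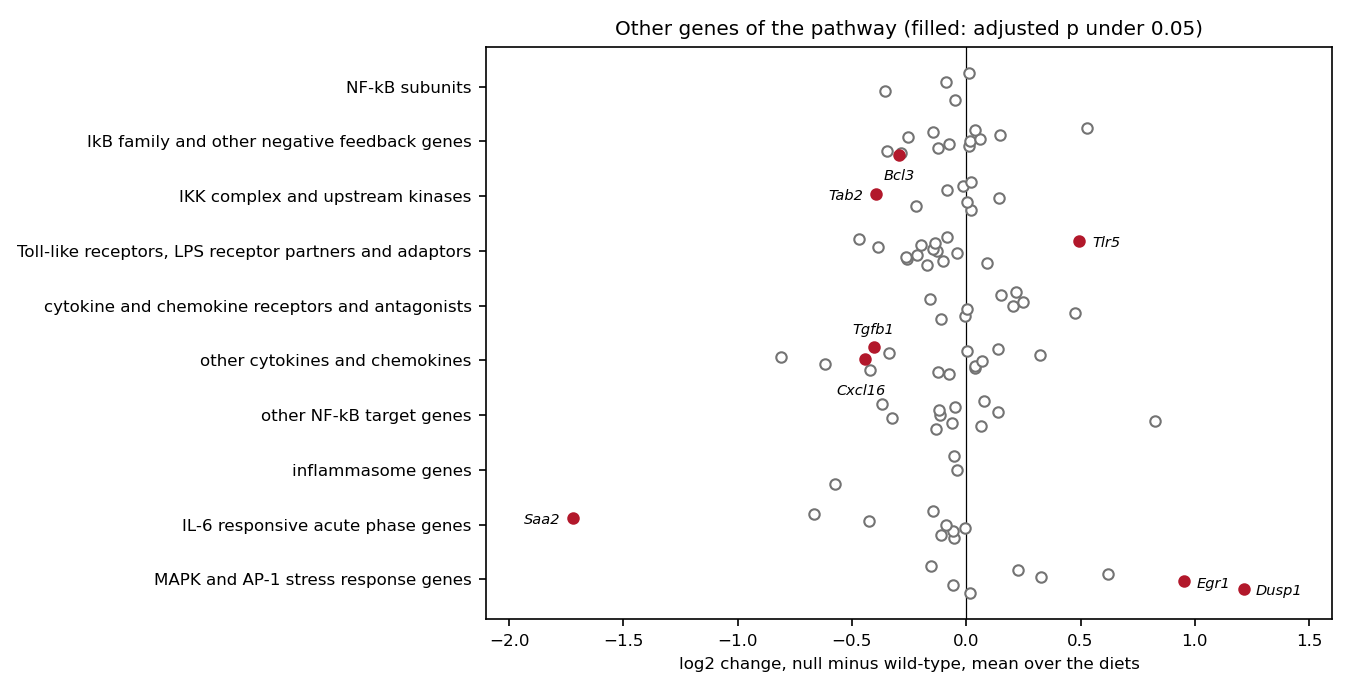
Log2 change of each tested gene of the 10 pathway lists, null minus wild-type averaged over the diets, 1 row per list, with vertical jitter for legibility. Filled and named points passed an adjusted p under 0.05. The 3 that rose run from 0.50 (Tlr5) to 1.21 (Dusp1), and the 5 that fell from -0.29 (Bcl3) to -1.72 (Saa2).

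Markers of resident macrophages were lower in null livers, as Ccl3 was. Of 13 macrophage and Kupffer cell markers 12 fell in null livers (median -0.52), against 559 of all 14031 genes that fell. The exception was Timd4 at -0.51 (adjusted p = 0.0537). On leaving out each array in turn between 5 and 12 of these markers fell. The counts under 8 were 5 without null ethanol 1, 7 without null control 2, 7 without wild-type ethanol 2, 6 without wild-type ethanol 3 and 6 without wild-type control 1. Their summed linear intensity ran from 4618 to 6694 on null ethanol arrays, from 3634 to 4928 on null control arrays, from 7275 to 9193 on wild-type ethanol arrays and from 5784 to 8350 on wild-type control arrays, so null and wild-type overlapped only across diets. Of the defining markers, Adgre1 (F4/80) changed by -0.85 (adjusted p = 0.00405) and Clec4f by -0.42 (adjusted p = 0.0208). In whole liver, fewer cells of a type and less RNA per cell cannot be told apart, and the part of these markers in the change of Ccl3, or of Tnf, Il1b and Tlr4, was not tested.

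The ethanol changes of the same 13 markers were all positive (median 0.30), and none passed. At unadjusted p under 0.05 there were 8 of the 13, against 1702 of all 14031 genes (12.1%), in a list chosen with earlier results of these data known. Monocyte markers summed to 267 to 319 on null arrays and 310 to 373 on wild-type arrays, and 1 of 3 tested fell, Fcgr1. Neutrophil markers summed to 193 to 225 on null arrays and 205 to 253 on wild-type arrays, with 6 of 7 below the filter on all arrays. The defining markers Ly6c2 and Ccr2 of monocytes and S100a8 and Ly6g of neutrophils were below the filter on all 12 arrays. T and NK cell markers summed to 319 to 355 on null arrays and 320 to 405 on wild-type arrays, and B cell markers to 131 to 187 on null arrays and 138 to 191 on wild-type arrays. Of 7 sinusoidal endothelial markers 2 fell, and of 6 hepatocyte and 6 stellate cell markers none passed. Over all genes 559 of 14031 fell in null livers.

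The tested genes whose log2 values ran most like a member's over the 12 arrays are given as a description. They are the highest of the named genes among the 14031, and the arrays share genotype and diet. Predicted genes, clone names, microRNAs and other small RNAs, and olfactory and vomeronasal receptors were left out of this ranking. Nearest to Nfkbia were Strap (Pearson's r 0.925), Pdhb (0.892) and Pklr (0.888). Nearest to Ccl3 were Plpp1 (0.938), Prdx3 (0.935) and Pros1 (0.93). For Tlr4 they were Lhpp (0.921), Cflar (0.917) and Tfrc (0.905), for Il1b Rilpl1 (0.899), Id2 (0.882) and Epsti1 (0.867), and for Tnf Ugt2b37 (0.897), Il2rb (0.867) and Cks1brt (0.861). For Tnfaip3 they were Fbxo40, Thada and Wdr41 (0.893 to 0.904), for Cxcl1 Pter, Aida and Nkx6-1 (0.84 to 0.92), for Ccl2 Kcnc4, Gper1 and Hip1r (0.801 to 0.823), and for Cxcl2 Baiap2l2, Deup1 and Fat2 (0.777 to 0.809). None of these was another of the 10 members.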

How the data were processed

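The 12 liver RNA samples had 1 Mouse Gene 2.0 ST array each, 3 in each of 4 groups read from the labels. The deposited values are 1 intensity per probe set and array on a linear scale (1.816 to 20156), and the submitters' processing notes credit the authors' normalization to RMA. The sources used here name neither its software nor its settings. Here log2 was taken. Of 41345 probe sets, 23521 name exactly 1 gene, 1814 several and 16010 none; per gene the probe set with the highest mean was kept. Names came from the platform annotation, and 23328 probe sets matched RefSeq by Entrez ID with 0 symbols changed.

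Group means were modelled over the 12 arrays in limma 3.58.1 and R 4.3.3 (lmFit, contrasts.fit, eBayes; 8 residual and 4.95 prior degrees of freedom), with 7 contrasts and Benjamini-Hochberg adjustment over 14031 genes; called means adjusted p under 0.05. The median SE was 0.116 for a pair of groups. Il6 came from a fit with no filter over 22180 genes. Single members also had an exact permutation test (10 genes, 2 comparisons, unadjusted). The steps were tested on simulated data. The number of arrays limits the precision.

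The members, pathway lists and marker lists were chosen with earlier results of these data known. Genes named were all members, the 3 genes most like each tested member, defining markers, and genes picked from the pathway lists. The pick took up to 4 genes of each pathway list by smallest p for genotype and up to 2 for ethanol. Not every gene picked is named. Mif, Timd4, Fcgr1, Lbp and Ly96 were named after their values were seen. Alternatives were other filters, probe set means, an intensity trend, renormalization, a replicate block and leaving out each array. Some listed genes were not analysed here.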

Additional observations from a re-analysis of the deposited data

How the results depend on the processing

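Of the 70 member changes under 1267 alternatives, 1202 kept direction and side of the threshold, 9 lost and 3 gained a call, and 53 changed sign; none of those passed in either fit. For null against wild-type averaged over the diets, members called were 2, and 1 (Nfkbia) both with no filter and with a filter at the 60th percentile, where only 2 members were tested; without 1 array each they ran from 1 to 2. Within the control diet and within ethanol they ran from 0 to 1. Nfkbia kept its call in all 12 such fits (adjusted p 0.0167 to 0.0457) and in 7 other settings (0.00931 to 0.0317). Ccl3 kept its call in 4 of the 12, with adjusted p of 0.00508 to 0.0869 over all 12. Same-numbered arrays did not deviate together (r from -0.146 to 0.191 over 18 pairs, 2 over 0.1); with a replicate block, 2 members were called (Nfkbia adjusted p 0.0231, Ccl3 0.0415).

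Sign changes with no array left out, all for ethanol in null livers, were Il1b -0.0105, Il6 -0.031 and Cxcl2 0.0497 on renormalizing by quantiles and Il6 -0.0067 and Ccl2 -0.0013 on centring; for the interaction Il6 gave -0.0713 and -0.0513. Without 1 array each, null minus wild-type ran from -0.0833 to 0.139 (Il6), -0.179 to 0.0198 (Cxcl2) and -0.0127 to 0.413 (Tnfaip3) on the control diet. On ethanol it ran from -0.0991 to 0.0289 (Tnf), -0.11 to 0.22 (Il6), -0.21 to 0.14 (Ccl2), -0.13 to 0.12 (Cxcl1) and -0.015 to 0.213 (Tnfaip3), and over the diets from -0.0263 to 0.139 (Il6) and -0.0087 to 0.0925 (Cxcl2). Ethanol minus control ran from -0.13 to 0.19 (Il6), -0.15 to 0.19 (Il1b), -0.16 to 0.17 (Ccl2), -0.15 to 0.12 (Cxcl1) and -0.115 to 0.0684 (Cxcl2) in null, from -0.11 to 0.20 (Il6) and -0.0018 to 0.13 (Tlr4) in wild-type, and from -0.0506 to 0.114 (Il6) over both. The interaction ran from -0.305 to 0.033 (Il1b), -0.17 to 0.16 (Il6) and -0.32 to 0.10 (Tnfaip3). The cause was not tested.

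Over all genes, calls for null against wild-type on the control diet were 715 and 393 with no filter, and without 1 array each 192 to 1304; 450 were higher and 265 lower, against 355 and 349 on renormalizing by quantiles. On ethanol 64 were higher and 187 lower, against 85 and 144 on renormalizing by quantiles, and counts without 1 array ran from 108 to 319; averaged over the diets from 621 to 1314. Ethanol calls in wild-type were 13, against 7 with no filter, 23 at the 60th percentile, 24 with a trend and 0 to 810 without 1 array (810, and the upper ends 1304, 1314, 293 and 84, without wild-type control array 2). In null livers they were 1, against 0 with no filter or a block and 0 to 3 without 1 array. Over both they were 2, against 4 with a trend, 8 by quantiles, 0 with a block and 0 to 293 without 1 array. For the interaction they were 2, against 1, 0 (60th percentile) and 0 to 84. Pathway genes that rose were 2 to 5 and those that fell 2 to 6 without 1 array, and 8 to 13 macrophage markers fell under other settings, chosen after seeing the data. Signal over background limits Il6, which was at the level of unexpressed genes, and Tlr4, Tnf and Il1b, which were near the filter. It also limits Ccl3, whose null values were near the filter.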
